A study of Mus musculus with 5 samples.

Results

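The 44 genes described here encode proteins of the large subunit of the cytosolic ribosome, from Rpl3 to Rpl39 with the stalk genes Rplp0, Rplp1 and Rplp2. They were chosen by gene symbol and not by any measured value, although earlier results of these data were known. All 44 had a row among the 18349 genes of the mRNA list. Their pseudogenes, of which the mouse genome carries many, were left out. Within their exons lay 116 of the 90337 peaks and 96 of the 11907 deletion sites that the study deposited for the poly(A) binding protein PABPC1.

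The cells were MEL, a mouse erythroleukemia line, grown in minimal essential medium with fetal bovine serum. The labels used here name no treatment, clone or genotype. The names of the peak, deletion and mRNA lists all carry the label of a starting day, without saying what that day counts from. In 3 samples, RNA held by PABPC1 was isolated by CLIP-seq: living cells were irradiated with ultraviolet light (400 mJ/cm2), the lysate was digested with RNase for 10 min, and the protein was pulled down with an antibody together with the RNA linked to it. The other 2 samples were mRNA-seq of RNA selected with oligo(dT). The authors pooled each kind of sample into 1 value a gene, peak or site, so replicates cannot be separated. The values below carry no replicate error, no test between groups was possible, and each comparison is a description.

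A peak is a stretch of RNA covered by CLIP tags, and its deposited score was read as its height in tags. A deletion site is a single base that reverse transcriptase skipped in some of the tags, which can happen at bases linked to the protein. Both are set beside 1109 protein-coding genes with an RPKM (read number corrected for the length of the gene and the depth of sequencing) of at least 100, with the 44 genes left out, and beside 33 genes of the small ribosomal subunit. In the mRNA list an RPKM of 0.0284 corresponded to 1 read in a gene of 1 kb. The lowest of the 44 genes therefore still rested on about 111 reads per kb. Of the erythroid markers 10 of 11 had an RPKM of at least 1, led by Klf1 at 428, Epor at 225 and Gata1 at 211, while Slc4a1 stood at 0.122. Of 6 fibroblast markers 2 did, Thy1 at 65.3 and Pdgfrb at 2.60, with Col1a2 and Col3a1 not listed, and of 6 markers of other blood cells 0 did, the highest being Csf1r at 0.610.

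A ribosome takes up nearly every one of these proteins in a single copy, and growing cells devote much of their transcription to them. Their mRNAs are short, with short untranslated regions (UTRs), and most begin with a 5' terminal oligopyrimidine (TOP) motif, through which the growth signal from mTOR controls their translation. PABPC1 coats the poly(A) tail at the 3' end, which is not encoded in the genome, so tags of the tail alone do not map, and it also binds A-rich stretches within mRNAs.

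The following windows show the sequence around the strongest deletion site of the 10 genes with the most deletions. A deletion site marks 1 base, where a peak covers a longer stretch. Whether each of these sites is a contact with PABPC1 was not tested. Within a run of 1 base, the skipped base cannot be told from its neighbours. Each is the 29 bases of the annotated transcript (GENCODE M21, mm10), 5' to 3', with the deleted base in capitals. They come from Rpl18 (chr7:45720796-45720824, plus strand), Rplp1 (chr9:61913287-61913315, minus), Rpl8 (chr15:76906278-76906306, plus), Rpl32 (chr6:115805519-115805547, minus), Rpl13 (chr8:123105180-123105208, plus), Rplp2 (chr7:141447967-141447995, plus), Rpl4 (chr9:64178461-64178489, plus), Rpl14 (chr9:120574531-120574559, plus), Rpl15 (chr14:18268329-18268357, minus) and Rplp0 (chr5:115563504-115563532, plus). The deleted bases of Rpl13 and Rplp2 lie in coding sequence (CDS) and the other 8 in 3' UTRs.
Rpl18: atcttaactgttaaTaaaaaaaacattgg
Rplp1: tgttaagttggctaAtaaagagctgaacc
Rpl8: agagttcaggagctAataaagtacgtcct
Rpl32: gcatgttttatgttTaaataaaatcacaa
Rpl13: aagatgttgaaaagAaaaaataattctgt
Rplp2: ccaaagacatcaagAaaatactagacagc
Rpl4: aaattccagagagcAagtagagaccgcat
Rpl14: tagtacttagcataCagccagagtcaaac
Rpl15: caaccaagcaaataTaagtttgattaagc
Rplp0: cttctcttaaaactCcggtctggatttat

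In Rpl18, Rplp1, Rpl8 and Rpl32 the deleted base lay in or within 2 nt of AATAAA, the main signal for cleavage and polyadenylation. In Rpl13 and Rplp2 it opened a run of A in the coding sequence. The windows of Rpl4, Rpl14, Rpl15 and Rplp0 held neither AATAAA nor the second signal ATTAAA.

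The mRNA levels of the 44 genes fell into a few very high and many modest values. The median was an RPKM of 56.6 (95% order-statistic interval over genes 35.1 to 107), against 11.5 over the 13407 protein-coding genes listed and 90.9 over the small-subunit genes. The 5 highest were Rpl4 at 4768, Rpl8 at 3968, Rplp1 at 3150, Rpl32 at 3140 and Rplp0 at 1013. These 5 held 80.4% of the summed RPKM of all 44. Another 28 genes stood below 100, and the lowest were Rpl29 at 3.14, Rpl23a at 6.83 and Rpl35a at 7.27.

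Pseudogenes stood beside these low values. The proportion of the 30-base words of a gene's mRNA that also occurred in another annotated gene had a median of 58.7% over the 44 genes, 53.5% over the small-subunit genes and 0.165% over the genes with RPKM of at least 100. Matching by such shared words linked the 44 genes to 1114 annotated pseudogenes, of which 330 were in the mRNA list with a summed RPKM of 49336, against 19938 for the 44 genes themselves. In 33 of the 44 the matched pseudogenes summed to more than the gene. Gm4149 had 6711 where Rpl37a had 173, Rpl10a-ps1 had 3713 where Rpl10a had 90.9, and Rpl3-ps1 had 3013 where Rpl3 had 37.6.

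Of the 5 highest genes 4 had little pseudogene signal, but so did several low ones. Rpl4 and Rpl8, with 3 and 1 matched pseudogenes, had none in the list. Rplp1 had a single matched pseudogene at 0.0822, and Rpl32 had matched pseudogenes at 2.64 in all. Rplp0 was the exception at this end, with 5080 in its pseudogenes beside 1013 of its own. At the low end, Rpl23 had an RPKM of 34.3 with 0.138 in its pseudogenes, Rpl36a had 83.8 with 0.446, Rplp2 had 55.7 with 5.57, Rpl10 had 35.1 with 7.58 and Rpl27 had 96.0 with 10.5. Across the 44 genes, Spearman's rho was -0.51 between RPKM and the number of matched pseudogenes and -0.16 between RPKM and the proportion of shared words (both over genes, which are not independent replicates). Adding the matched pseudogenes to each gene moved the median RPKM from 56.6 to 1001. The sources used here do not say how reads that match several places were counted. What part of the pseudogene values came from the 44 genes was not tested, and a low mRNA level and a loss of reads to pseudogenes cannot be told apart here.

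**Figure D1:**
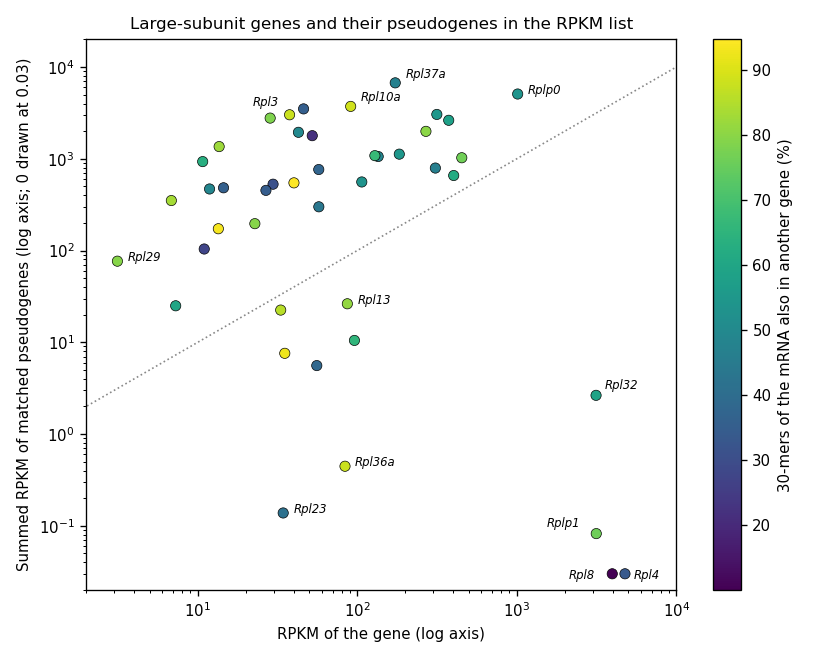
RPKM of each of the 44 genes (x, log axis) against the summed RPKM of its matched pseudogenes (y, log axis, a sum of 0 drawn at 0.03), coloured by the percentage of its 30-base words found in another gene; the dotted line marks equal values. In 33 genes the pseudogenes lie above the line, while Rpl4, Rpl8, Rplp1 and Rpl32 lie far below it.

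The row listed under the symbol Rpl24, at 13.6, carried a gene identifier that the annotation gives to Zbtb11. A separate row under RPL24 with the identifier of Rpl24 stood at 3.64. Exons of Rpl13a, Rpl19, Rpl24 and Rpl32 overlapped another annotated gene on the same strand, so tags there could not be assigned to 1 gene alone.

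PABPC1 peaks were found on nearly all of the 44 mRNAs, and they were few a gene but tall, as in the small-subunit genes. The 116 exonic peaks had a median height of 73 tags, against 19 in the genes with RPKM of at least 100. It was 10 in those with RPKM of at least 1 and 99 over 95 peaks in the small-subunit genes. A peak in an exon was present in 42 genes (95.5%), beside 99.9% of the genes with RPKM of at least 100, 96.6% of 10167 genes with RPKM of at least 1 and 90.9% of the small-subunit genes. This proportion lay close to that background. With peaks of at least 74 tags it was 29 genes (65.9%), against 93.7%, 55.2% and 63.6% in the same order. The number of exonic peaks a gene had a median of 2, against 7 in the genes with RPKM of at least 100, whose transcripts were longer (median CDS 1059 nt against 478.5, median 3' UTR 497 nt against 93.5). The small-subunit genes also had a median of 2 exonic peaks.

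The summed height of a gene's exonic peaks, which is not divided by length, reached 11740 tags in Rpl4 and had its median at 237 (interval 80 to 587). It was 653 over the genes with RPKM of at least 100, 170 over those with RPKM of at least 1 and 182 over the small-subunit genes. Rpl4 alone held 29.4% of the 39869 tags of all 44 genes, and the 5 highest held 65.2%. Rpl3, whose protein reaches the peptidyl transferase centre, and Rpl36 had no exonic peak, at an RPKM of 37.6 and 40.1. Each had 1 intronic peak, of 10 and 13 tags. Both were among the genes with the most shared sequence, 87.7% and 94.6% of their 30-base words.

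**Figure D2:**
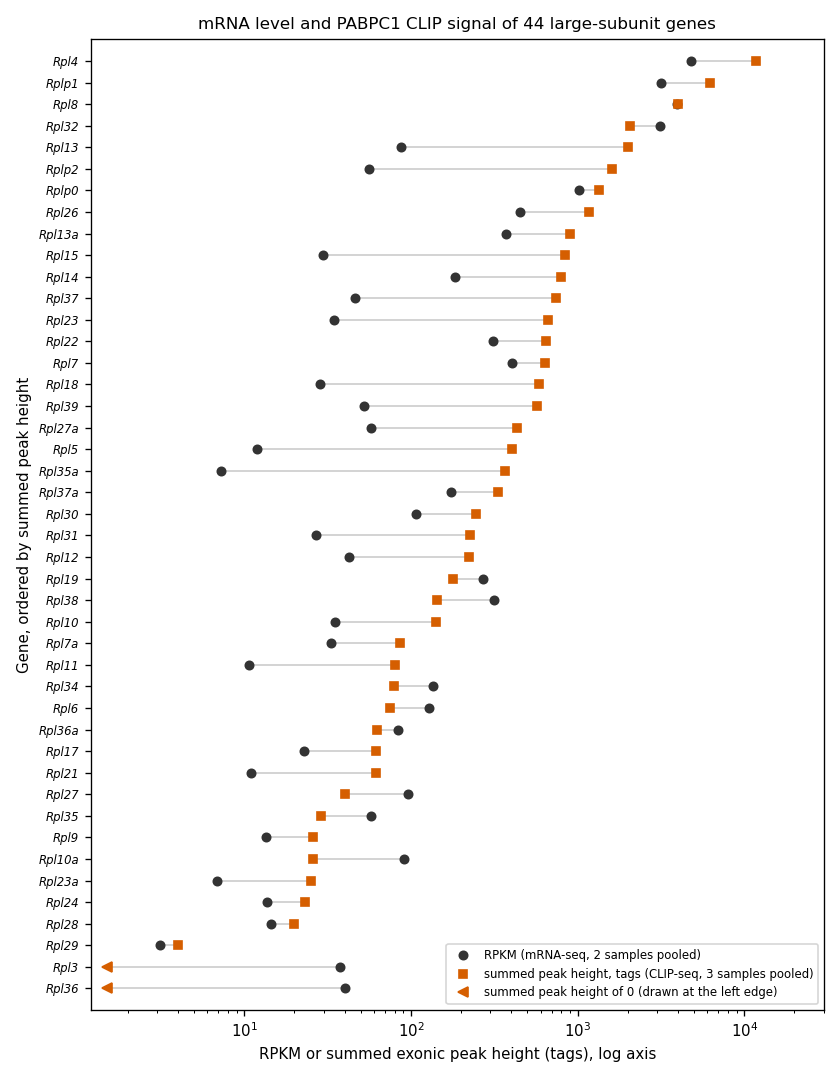
RPKM (dark circles) and summed height of exonic PABPC1 peaks in tags (orange squares) for each of the 44 genes on a shared log axis, ordered by summed height; triangles at the left edge mark a height of 0. Rpl4, Rplp1 and Rpl8 are high in both measures, Rpl13, Rplp2 and Rpl15 are high in height at an RPKM below 100, and Rpl3 and Rpl36 have no exonic peak.

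Among the 44 genes, height over RPKM was more often below than above the median of the genes with RPKM of at least 100. The ratio log2((summed height + 1)/(RPKM + 1)), whose zero has no meaning of its own, had a median of 1.23 (interval 0.66 to 1.97). The median was 1.76 in the genes with RPKM of at least 100, 2.79 in those with RPKM of at least 1 and 0.35 in the small-subunit genes. Of the 44 genes 16 lay above 1.76 and 28 below it. The highest ratios belonged to Rpl35a (5.47), Rpl5 (4.97), Rplp2 (4.82), Rpl15 (4.78), Rpl13 (4.51) and Rpl18 (4.32). The lowest after Rpl36 (-5.36) and Rpl3 (-5.27) belonged to Rpl10a (-1.77), Rpl27 (-1.24), Rpl38 (-1.13) and Rpl35 (-0.96). With matched pseudogenes added to the RPKM the median fell from 1.23 to -1.56, and of the 6 highest genes those of Rpl18, Rpl5 and Rpl15 fell most (to -2.25, -0.25 and 0.60), with Rpl35a at 3.46, Rpl13 at 4.13 and Rplp2 at 4.68. Over the 44 genes, Spearman's rho was 0.59 between height and RPKM and -0.46 between height and the proportion of shared 30-base words.

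Of the 4 stalk genes, Rplp1, Rplp2 and Rplp0 were among the 7 genes with the highest summed height, and Rpl12 was below the median of the 44. All 4 carried a deletion site, as did 78.1% of the genes with RPKM of at least 100 and 37.0% of those with RPKM of at least 1. P0, P1 and P2 form the flexible stalk that recruits elongation factors, and L12 sits at its base. Rplp1 had a summed height of 6208 tags at an RPKM of 3150, the second highest height of the 44 genes. Rplp2 had 1600 at an RPKM of 55.7 and Rplp0 had 1343 at 1013. Rpl12 had 223 at 42.8. The stalk genes together carried 493 deletions at 17 exonic sites.

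The signal on Rplp1 was concentrated at both ends of the mRNA. Its peak of 3929 tags (chr9:61914330-61914562) covered transcript bases 1 to 186, which include the 5' UTR of 114 nt and the start codon, and made up 63.3% of the gene's height. A second peak of 1966 tags covered the stop codon and the 3' UTR of 40 nt up to the annotated end. The coding sequence between them had a single peak of 313 tags. All 3 deletion sites of Rplp1 lay in the second peak, with 182 deletions in all, and none lay in the taller one at the 5' end. In Rplp2 the 5' UTR peak of 693 tags and the CDS peak of 730 tags were of like height, and its 3' UTR of 277 nt had 1 peak of 45 tags. Its strongest deletion site, 46 of 273 tags (16.8%), was the A-rich coding window shown above, and 99 deletions were counted over its 3 sites.

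Rpl5 and Rpl11, which bind the 5S rRNA and carry it into the subunit, were both low in RPKM (11.9 and 10.7). Rpl5 had 6 exonic peaks with a summed height of 403 tags, of which 374 lay in its long 3' UTR of 1009 nt. Rpl11 had a single exonic peak of 80 tags over its stop codon and no deletion site. Of the 4 sites of Rpl5, 2 adjoining bases were deleted in 28 of 113 and 22 of 122 tags, and the other 2 in 3 of 3 tags each, which is too few to give a level (95% Wilson interval 43.9% to 100%).

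The genes of the exit tunnel and its rim, where the new protein chain leaves the ribosome, ranged from 25 tags (Rpl23a) to 11740 (Rpl4). Rpl4, whose protein lines the tunnel with a long loop, had the tallest peak of the whole list, 10814 tags over 369 nt (chr9:64178226-64178594), which ran from the last part of the CDS over the stop codon and ended 72 nt before the annotated end. This peak held 10 of the gene's 16 exonic deletion sites. The strongest was deleted in 99 of 9888 tags, which is 1.00% (95% Wilson interval 0.823 to 1.22), so even this large count is a small share of the tags. Rpl26, which sits at the tunnel rim, had 1164 tags, nearly all in 1 peak of 1108 over the stop codon and 3' end, and yet no deletion site. Rpl39 had 568 tags in 1 peak with 2 sites, and Rpl31 (227), Rpl19 (178), Rpl17 (62) and Rpl35 (29) had less.

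Among the genes of the peptidyl transferase centre and the tRNA sites, Rpl8 stood alone. Rpl8 had 3990 tags in 6 peaks spread over its CDS, of 2034, 845, 629, 196, 161 and 125 tags, and its tallest covered the stop codon and reached the annotated end. The other 4 had a summed height of at most 141 tags and no deletion site: Rpl10 had 141, Rpl36a had 63, Rpl10a had 26 and Rpl3 had 0. Their RPKM lay between 35.1 and 90.9, against 3968 for Rpl8, and between 87.7% and 92.3% of their 30-base words were shared with other genes, against 10.1% for Rpl8. Rpl24, which forms a bridge to the small subunit, had 1 peak of 23 tags in its 5' UTR and no deletion site.

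The remaining 24 genes had a median summed height of 350 tags. Rpl32 had 2057 tags, Rpl13 had 1995, Rpl13a had 896, Rpl15 had 844 and Rpl14 had 792. Of the 1995 tags of Rpl13, 1990 lay in 1 peak of 78 nt over the stop codon and the 3' UTR of 42 nt. In Rpl15 the 3' UTR of 1188 nt held 5 peaks, the tallest of 624 tags lying 477 nt before the annotated end. Rpl37 (744), Rpl23 (662), Rpl22 (646), Rpl7 (637) and Rpl18 (587) followed, in an order that no replicate supports. Rpl27a had 433 tags, Rpl35a 365, Rpl37a 335, Rpl30 247 and Rpl38 144. Rpl7a had 86, Rpl34 79, Rpl6 75, Rpl21 62, Rpl27 40, Rpl9 26, Rpl28 20 and Rpl29 4.

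Within the mRNA, peaks of the 44 genes lay more in 5' UTRs and less in CDS than those of the genes with RPKM of at least 100. Of the 116 exonic peaks, 23.3% had their midpoint in a 5' UTR (95% Clopper-Pearson interval 15.9 to 32.0), 32.8% in CDS (24.3 to 42.1) and the other 51 peaks in a 3' UTR (34.8% to 53.5%). In the genes with RPKM of at least 100 the shares were 4.85%, 66.9% and 28.2% of 9251 peaks, and in those with RPKM of at least 1 they were 2.58%, 42.6% and 54.8% of 73686 peaks. In the small-subunit genes the shares were 23.2%, 44.2% and 32.6% of 95 peaks, so their 5' UTR share was near that of the 44. The 3' UTR share of the 44 genes lay between those of the 2 sets chosen by RPKM. By length, the exons of the 44 genes would give 23.7% for the 5' UTR and 46.3% for the CDS when each gene is weighted by its peaks, so the 5' UTR share was near that of length. Peaks in 3' UTRs were 1.47 times as frequent as length gives, against 0.825 in the genes with RPKM of at least 100. The value was 1.22 in those with RPKM of at least 1 and 1.00 in the small-subunit genes. These intervals cover counting error only, and peaks of 1 mRNA are not independent.

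Weighted by height, the order changed. CDS peaks held 54.0% of the height of the 44 genes, 3' UTR peaks 32.7% and 5' UTR peaks 13.3%, against 27.3%, 70.8% and 1.96% in the genes with RPKM of at least 100. In the small-subunit genes they held 61.7%, 25.8% and 12.5%. The CDS value of the 44 genes rested on Rpl4, whose tallest peak had its midpoint just before the stop codon: without Rpl4 it was 34.8%. Over single genes, 20 had most of their height in the 3' UTR, 13 in the CDS and 9 in the 5' UTR. The tallest peak lay in the 3' UTR in 21 of 42 genes (background 84.8% of the genes with RPKM of at least 100), in the CDS in 12 (28.6%, background 14.1%) and in the 5' UTR in 9 (21.4%, background 1.08%). In the small-subunit genes the shares were 46.7%, 36.7% and 16.7%. Among the 9 large-subunit genes with their tallest peak in the 5' UTR, that peak had 3929 tags in Rplp1 and 4 to 126 in the others. In Rpl10, Rpl27, Rpl28 and Rpl29 its midpoint was intronic in the principal transcript.

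**Figure D3:**
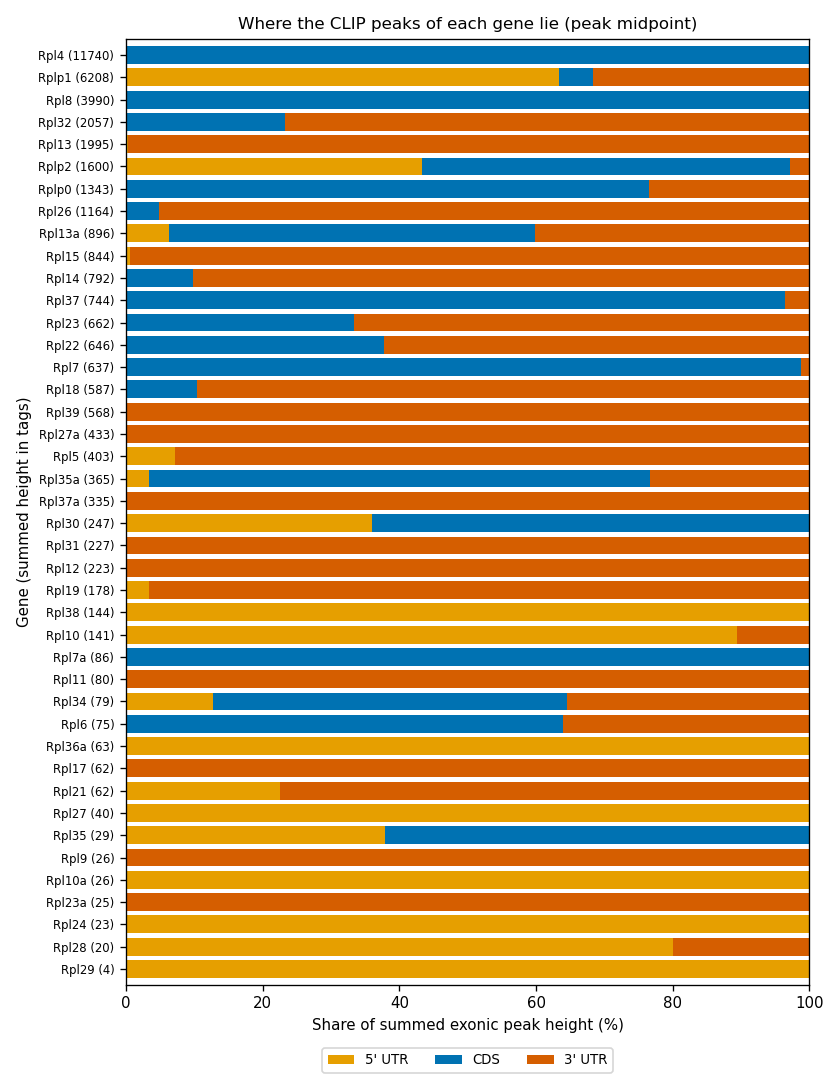
Share of each gene's summed exonic peak height (x, %) in the 5' UTR (yellow), CDS (blue) and 3' UTR (orange), for the 42 genes with an exonic peak, ordered by summed height given in brackets. Among the highest genes, Rpl4 and Rpl8 are all CDS by midpoint, Rplp1 and Rplp2 hold large 5' UTR shares, and Rpl13 is nearly all 3' UTR; several of the lowest genes are all 5' UTR.

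Peaks in a 5' UTR were present in 20 of the 44 genes (45.5%), against 30.7% of the genes with RPKM of at least 100 and 57.6% of the small-subunit genes. Most were small: 22 of the 27 peaks were under 50 tags. The 5 genes with the tallest were Rplp1 (3929 tags), Rplp2 (693), Rpl10 (126), Rpl38 (125) and Rpl36a (63). For 14 of the 27, among them the peak of Rpl10, the midpoint was 5' UTR in an alternative transcript and intronic in the principal one, so their 5' UTR placement depends on the annotation. In 6 genes, with 4 to 144 tags in all, the 5' UTR held every exonic tag. The start codon was covered by a peak in 9 genes (20.5%). This lay between 34.0% of the genes with RPKM of at least 100 and 11.4% of those with RPKM of at least 1. It was 45.5% of the small-subunit genes.

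The TOP motif was searched in the annotated starts as a C followed by 4 pyrimidines (C or T) at the first base, on the transcript strand. It was found in 6 of the 44 principal transcripts (13.6%) and in 3.88% of the genes with RPKM of at least 100. A run of 5 pyrimidines anywhere in the first 20 nt was present in 21 (47.7%) against 36.5%. Annotated starts may differ from those used in MEL cells by some bases, so the count at the exact start describes the annotation. Rplp1, with the tallest 5' UTR peak, had a run of 10 pyrimidines in its 5' UTR start region but no pyrimidine at its annotated first base.

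At the 3' side, a peak covered the stop codon in 20 genes (45.5%), against 85.8% of the genes with RPKM of at least 100, 52.1% of those with RPKM of at least 1 and 39.4% of the small-subunit genes. It was the tallest peak of the gene in 14 of the 42 genes with one (33.3%, background 52.0%, small subunit 33.3%). A peak reached the annotated end in 23 genes (52.3%), against 66.0%, 48.4% and 45.5% in the same order. Short 3' UTRs were common among the 44: 24 were under 100 nt, against 92 of the 1109 comparison genes (8.30%). Among genes with such a short 3' UTR and an exonic peak, a peak covered the stop codon in 9 of 22 large-subunit genes and in 74 of 91 comparison genes (81.3%), and the tallest peak did so in 5 of 22 and 66 of 91 (72.5%). Among genes with a short 3' UTR, stop codon peaks were thus less frequent in the large-subunit genes than in the comparison genes. These sets were not matched by RPKM or by shared sequence, and the part of 3' UTR length was not tested.

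Deletion sites were present in the exons of 21 genes (47.7%), against 78.1% of the genes with RPKM of at least 100, 37.0% of those with RPKM of at least 1 and 42.4% of the small-subunit genes. These 21 genes had a median summed height of 637 tags, from 79 in Rpl34 upward, and the 23 without a site had a median of 62, up to 1164 in Rpl26. Spearman's rho between height and deletions was 0.73 over the 44 genes, and both were made from the same tags. The 23 without a site were Rpl3, Rpl6, Rpl9, Rpl10, Rpl10a, Rpl11, Rpl17, Rpl21, Rpl22, Rpl23, Rpl23a, Rpl24, Rpl26, Rpl27, Rpl28, Rpl29, Rpl30, Rpl35, Rpl35a, Rpl36, Rpl36a, Rpl37 and Rpl38. A missing site says only that none passed the authors' threshold at that tag depth.

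The sites were unevenly divided among genes. Rpl4 had 359 deletions at 16 sites, Rpl13 had 323 at 10, Rpl14 had 267 at 10 and Rpl32 had 262 at 10. Rpl8 had 230 at 10, Rplp1 had 182 at 3, Rplp0 had 174 at 9 and Rpl18 had 164 at 2. The 10 genes with the most held 88.0% of the 2441 deletions. Of the 96 sites 57 (59.4%) had another site at the adjoining base, so neighbouring sites are not separate contacts, and 94 (97.9%) lay inside a peak. The percentage of tags deleted at a site had a median of 5.33%, at a median depth of 487 tags, against 7.69% at 246 tags in the genes with RPKM of at least 100.

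Deletion sites lay mainly in 3' UTRs, with a larger coding share than in the genes with RPKM of at least 100. Of the 96 sites 57.3% were in 3' UTRs (95% Clopper-Pearson interval 46.8 to 67.3), 41.7% in CDS (31.7 to 52.2) and 1.04% in 5' UTRs. In those comparison genes the shares were 88.0%, 11.1% and 0.969% of 3407 sites. The small-subunit genes had 51.9%, 33.3% and 14.8% of 54 sites in the same order. The 3' UTRs make up little of the 44 mRNAs. On the principal transcript, 57.9% of their sites lay in 19.0% of the length, 3.05 times the uniform share. In the genes with RPKM of at least 100, 87.3% lay in 37.5%, which is 2.33 times. Counted by deletions, 67.5% of the 44 genes' total were in 3' UTRs and 32.2% in CDS. The values were 92.8% and 6.69% in the genes with RPKM of at least 100, and 82.5% and 13.0% in the small-subunit genes. A coding site was present in 10 genes (22.7%, against 18.6% and 4.89% of the genes with RPKM of at least 100 and 1), and a 3' UTR site in 18 (40.9%, against 75.0% and 35.0%). The genes with RPKM of at least 100 are on the whole more abundant than the 44 (median RPKM 170 against 56.6). The 2 sets chosen by RPKM lie on opposite sides of the 44 in the share of genes with a 3' UTR site.

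**Figure D4:**
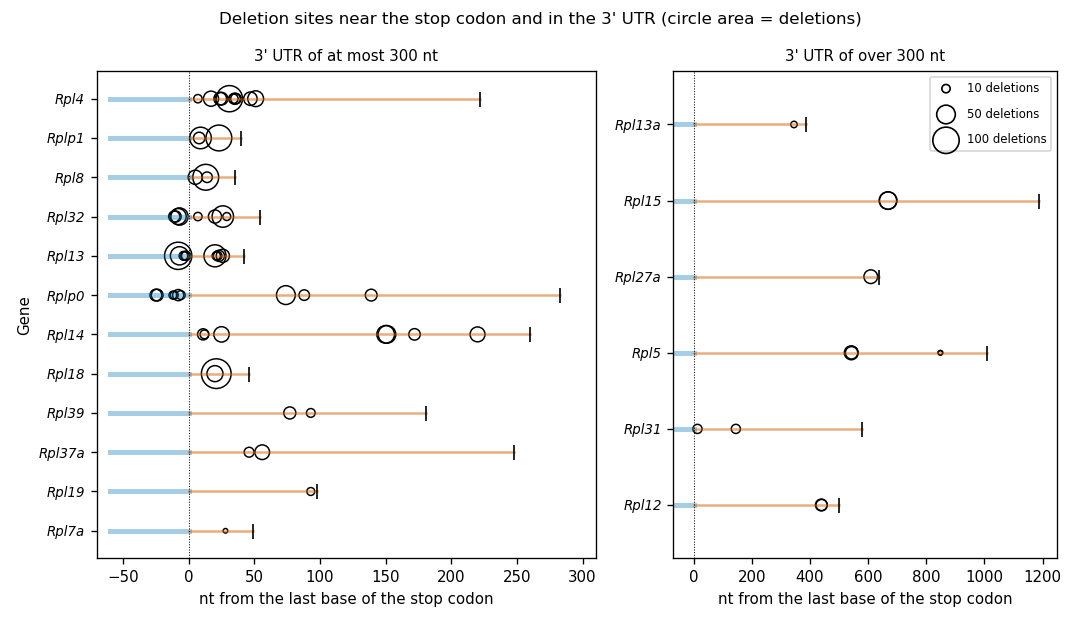
Deletion sites from 60 nt before the last base of the stop codon to the end of the 3' UTR, in genes with a 3' UTR of at most 300 nt (left) and over 300 nt (right); circle area is the number of deletions, blue is CDS, orange is the 3' UTR of the principal transcript and the black tick its end. In Rpl13, Rpl32 and Rplp0 sites lie on both sides of the stop codon, and in the short 3' UTRs of Rplp1, Rpl8 and Rpl18 they lie within 40 nt of the end.

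Several genes had sites on both sides of the stop codon. Of the 40 coding sites, 13 lay within 20 nt of the end of the CDS, in Rpl13, Rpl32 and Rplp0. In Rpl13 the strongest, 107 of 485 tags (22.1%, Wilson interval 18.6 to 26.0), was 8 nt before the last base of the stop codon, and the next base was deleted in 48 of 536 tags. Its strongest 3' UTR site was 20 nt past the stop codon at 70 of 1390 tags (5.04%), the first A of an AATAAA. In Rpl32, adjoining coding bases 7 and 8 nt before the last base of the stop codon were deleted in 43 of 936 and 37 of 780 tags, and the strongest 3' UTR site, 26 nt after it, in 66 of 696 (9.48%).

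Other coding sites lay far from the stop codon. Rpl8 had 3 sites near its start codon, the strongest with 27 deletions in 282 tags (9.57%), and 4 further on with 6 deletions each. Rpl7 had 2 adjoining sites with 12 deletions each, Rpl34 had 2 with 9 each in 40 tags, and Rpl13a had 1 with 11 in 293 tags. In the CDS of Rpl14, 3 adjoining bases had the same count, 21 of 72 tags each (29.2%), and lay in a run of CTG triplets, where the position of a skipped base or triplet cannot be placed exactly.

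Toward the transcript end, the 55 3' UTR sites had a median distance of 104 nt to the next annotated end (interval 32 to 186), against 112 nt in the genes with RPKM of at least 100 and 29 nt in the small-subunit genes. Of the 55, 49.1% lay within 100 nt of the end, but so did 56.4% of the 3' UTR length of the same genes, against 47.9% of sites and 23.0% of length in the comparison genes. In a 3' UTR under 100 nt every position lies within 100 nt of the end, so sites there cannot inform this comparison. The sites were also measured to the nearest annotated end, and the length to the end of the principal transcript. Whether the sites of the large-subunit genes were closer to the end than length gives was therefore not decided. The 7 genes with a 3' UTR under 100 nt had 19 sites, 5 to 40 nt before an end, and 11 genes with longer ones had 36 sites, 18 to 520 nt before it.

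The poly(A) signals AATAAA and ATTAAA were searched on the transcript strand. A signal lay within 50 nt of 45 of the 55 sites (81.8%, Clopper-Pearson interval 69.1 to 90.9), beside 70.5% of all 3' UTR positions of the same genes, and within 20 nt of 29 (52.7%). In the genes with RPKM of at least 100 the shares within 50 nt were 53.8% of sites and 24.9% of positions. In the small-subunit genes all 28 sites had a signal within 50 nt (100%, interval 87.7 to 100), beside 71.8% of positions. The interval for the large-subunit genes contained their share of positions, so an excess within 50 nt was not resolved for them. In 25 of the 55, the 29-base window itself held a signal: the site lay upstream of it in 9, inside it in 12 and downstream in 4.

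Over the windows of 95 exonic sites with transcript sequence, AATAAA was present in 23 (24.2%). It was in 2.97% of all such windows along the transcripts of the large-subunit genes, and in 25.9% of the sites of the genes with RPKM of at least 100. AAAAAA was in 7 windows (7.37%, against 1.05% of windows along the transcripts), ATATAA in 3 and ATTAAA in 2. The windows along the transcripts were not matched to the sites by gene or region. On the principal transcript 57.9% of the sites lay in 3' UTRs, which made up 19.0% of the length. What part of either difference came from region was therefore not tested. Motifs were searched on the transcript strand alone, AATAAA and AAAAAA can share bases, and a match describes the sequence only. Of the 4 windows shown above with AATAAA, that of Rpl18 also runs into a stretch of A.

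The deleted base was A or T at 80.2% of the 96 sites (Clopper-Pearson interval 70.8 to 87.6), against 55.4% of the bases of the same regions, and against 90.8% of sites in the genes with RPKM of at least 100. The 2 regions differed. In 3' UTRs, 50 of 55 sites were at A or T (90.9%, against 91.3% in the comparison genes). In CDS, 26 of 40 were (65.0%, interval 48.3 to 79.4), against 88.3% of 377 coding sites in the comparison genes. In the small-subunit genes 12 of 18 coding sites were at A or T (66.7%). The 14 coding sites at C or G were in Rpl4, Rpl7, Rpl8, Rpl13a, Rpl14, Rpl32, Rpl34 and Rplp0.

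A few sites were deleted in most of their tags. The strongest of Rplp0, a C at chr5 position 115563518 in the 3' UTR, was deleted in 51 of 57 tags (89.5%, Wilson interval 78.9 to 95.1), inside a peak of 315 tags. The other 3 above 50%, 2 in Rpl5 and 1 in Rpl7a, had 3 deletions in 3 tags each. They are described by these counts alone, and no cause was tested. Without these sites the 3' UTR share of deletion sites was 55.4%.

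Introns of these genes host small nucleolar RNAs (snoRNAs), which guide chemical modification of ribosomal RNA and are cut from the spliced intron. An intronic peak was present in 20 of the 44 genes (45.5%), against 25.8% of the genes with RPKM of at least 100 and 35.1% of those with RPKM of at least 1. Of the 34 intronic peaks, 13 (38.2%, Clopper-Pearson interval 22.2 to 56.4) shared at least 1 base with an annotated snoRNA on the same strand, against 3.55% of 591 intronic peaks in the comparison genes and 61.5% of 13 in the small-subunit genes. The 8 genes were Rpl3, Rpl4, Rpl12, Rpl13a, Rpl17, Rpl21, Rpl23a and Rpl37. The tallest was the 618 tags of Rpl4 at Snord16a, a peak of 297 nt that also ran into coding exons, where its deletion sites lay. Rpl37 had 86 tags at Snord72, and Rpl13a had 63 at Snord33, 33 at Snord35a, 20 at Snord34 and 18 at Snord32a. The median height of intronic peaks was 13.5 tags, and 3 of them exceeded the median of 73 of the exonic peaks: those of Rpl4 and Rpl37, and 1 of 117 tags in Rpl36a, which was taller than the only exonic peak of that gene (63). In Rpl10a, intronic peaks of 43 and 38 tags stood beside an exonic one of 26. The 1 intronic deletion site, in Rpl37, was deleted in 20 of 76 tags.

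The strand of the signal was that of the genes. Only 3 peaks lay antisense within the spans of the 44 genes, the tallest of 10 tags, with 1 antisense deletion site.

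Another gene of the large subunit and several paralogs were measured beside the 44. Rpl41, which encodes a peptide of the large subunit, had an RPKM of 2592 and a summed height of 75 tags, a log2 ratio of -5.09. Of 6 paralogs, Rpl7l1 had an RPKM of 124 and 743 tags with 2 deletion sites, Rpl36al had 87.9 and 477 tags with 1, and Rpl22l1 had 175 and 95 tags with none. Rpl3l, a muscle form of Rpl3, had an RPKM of 0.0691 and 3 tags, and Rpl10l and Rpl39l were not in the mRNA list.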

How the data were processed

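Peak and deletion lists of 3 pooled CLIP-seq samples and 1 RPKM list of 2 pooled mRNA-seq samples were used as deposited. The RPKM values are the authors', per the file names in the labels. The peak score is a whole number that the authors deposited without a stated meaning, and it was read as height in tags. The deletion list holds the authors' count of tags with a deletion at each base and the tags covering it. Tools listed in the submitters' processing notes, without roles, are HTSeq 0.6.0, TopHat2 2.0.12, Novoalign 3.02.02 and cutadapt 1.4.2, with mm10 as the build. Thresholds, and how reads with several matches were handled, are not given in the sources used here.

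Genes were matched by symbol. Peaks (by midpoint) and sites were placed by strand on GENCODE M21 basic transcripts in Python 3.11.15, in the order 3' UTR, 5' UTR, CDS, non-coding exon, intron; lengths are those of 1 principal transcript a gene. Sequences came from the annotated transcripts. Pseudogenes were matched by shared 30-base words. Total reads were recovered from the RPKM steps: of 3577 genes under 200 reads with an unchanged identifier, 92.1% gave whole reads within 0.01. The placing of sites was tested on simulated positions. Named genes are the 8 with the greatest height, the 6 highest and 6 lowest ratios, the 8 with the most deletions, the 5 tallest 5' UTR peaks, genes lacking a signal, and each role group by range. The genes and lists were chosen with earlier results of these data known. Samples could not be compared, so no p-value is given; 95% intervals cover counting error only.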

Additional observations from a re-analysis of the deposited data

How the results depend on the processing

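No paired analysis was possible because the replicates were pooled before deposit, and for the same reason no replicate could be left out. Of 43 alternative values for 10 results, 36 were counted as unchanged in direction and, within the limits set, in size. These limits were not equally strict for all results, so the count does not measure stability. Genes with an exonic peak going from 42 to 29, with peaks of at least 74 tags, counted as unchanged. A CDS share of height going from 54.0% to 54.9% counted as moved. With the matched pseudogenes added, an alternative chosen after seeing the data, the median RPKM moved from 56.6 to 1001 and the median log2 ratio of height to RPKM turned from 1.23 to -1.56, because the added RPKM enters the denominator. With peaks of at least 74 tags alone that ratio was 0.58, the share of exonic peaks in CDS was 48.3% in place of 32.8%, and the share of height in CDS was 55.1% in place of 54.0%. Without Rpl4 the share of height in CDS was 34.8%. On the principal transcript alone, also added after seeing the data, it was 54.9%, the share of exonic peaks in CDS was 38.8% and the share of deletion sites in 3' UTRs was 57.9%. The remaining alternatives added then were the Rpl24 row by identifier, leaving out sites deleted in over 50% of tags and leaving out Rpl4 for deletion sites, and none of these changed a direction. The precision is limited by 116 exonic peaks, 96 sites and 1 pooled library of each kind.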
